A study of Mus musculus with 10 samples.

Results

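The genes described here form a list named for peroxisomal membrane assembly and proliferation: Pex3, Pex16, Pex19, Pex11a, Pex11g, Pxmp2, Mpv17 and Slc25a17. They were chosen by gene symbol, and 7 of the 8 symbols had a row among the 40501 gene identifiers of the deposited count table. Mpv17 was not analysed here. The tissue was inguinal white fat, the subcutaneous depot of the groin, from 5 Cre-positive PexRAP-AKO mice (replicates 1, 2, 3, 5 and 6), in which PexRAP was deleted in adipose tissue, and 5 Cre-negative Control mice (replicates 2, 3, 5, 7 and 8). All mice were males fed chow on a C57/BL6J background. The labels give both an age of 8 weeks and 8 weeks of chow, so the age at harvest is uncertain, and the Cre driver is not given in the sources used here. Each library is taken as 1 mouse. The labels do not say whether mice that share a replicate number are related.

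Peroxisomes are single-membrane organelles that oxidise very long and branched fatty acids and carry out the first steps of ether lipid synthesis, in which PexRAP, the product of Dhrs7b, is a reductase. Their membrane proteins are made in the cytosol, bound by the chaperone PEX19 and delivered to the docking protein PEX3, while PEX16 brings PEX3 to the membrane. PEX11 proteins elongate the membrane ahead of fission, which uses the dynamin-related protein encoded by Dnm1l and its receptors Mff and Fis1, shared with mitochondria. In fat, peroxisomes multiply as adipocytes differentiate and are abundant in brown adipocytes.

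Library totals ran from 11274865 to 19881168 counts. Levels are given in CPM, counts relative to library size, after scaling by trimmed means of M values (TMM). Dhrs7b checked the labels: it averaged 19.9 ± 2.26 CPM in PexRAP-AKO and 82.4 ± 12.8 CPM in Control (SD, n = 5 each), with a log2 fold change of -2.05 (SE 0.12, edgeR adjusted p = 1.54e-05), and every PexRAP-AKO library was below every Control library. The defining markers of the labelled tissue were present: the 8 white adipocyte markers summed to 30565 to 39544 CPM in PexRAP-AKO and 31614 to 42145 CPM in Control. Of 5 epithelial markers 0 passed the filter on low counts, which does not show that they were absent from every library. Krt18 ran from 0 to 16.8 CPM in PexRAP-AKO and from 0.085 to 2.52 CPM in Control. Epcam ran from 0 to 8.48 CPM in PexRAP-AKO and from 0 to 2.11 CPM in Control. T cell markers summed to 5.79 to 66.4 CPM in PexRAP-AKO, highest in replicate 6, and to 4.96 to 9.47 CPM in Control. B cell markers summed to 3.25 to 70.9 CPM in PexRAP-AKO and 2.06 to 36.6 CPM in Control. All 6 endothelial markers had a negative log2 fold change (median -0.27, 0 called), with summed levels of 507 to 724 CPM in PexRAP-AKO and 710 to 873 CPM in Control. The part of these cell types in the results was not tested. In these pieces of tissue, fewer cells of a type and less RNA per cell cannot be told apart.

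Over all 7 genes, the transcripts for membrane protein delivery (Pex16, Pex19 and Pex3) and the cofactor carrier Slc25a17 had higher mean levels in PexRAP-AKO, Pex11a, Pex11g and the channel gene Pxmp2 had differences with intervals that span 0, and no gene passed the test across all genes. The test was edgeR's quasi-likelihood test with Benjamini-Hochberg adjustment over 14913 genes and a threshold of 0.05. It called 0 of the 7, where 0.101% of all genes tested were called (0.0939% higher and 0.00671% lower). All 7 passed the filter on low counts. DESeq2 called 2 of the 7, Pex16 and Slc25a17, both higher, where it called 4.27% of the genes it adjusted (3% higher and 1.26% lower). At an unadjusted p under 0.05 in edgeR, 4 of the 7 were higher in PexRAP-AKO and 0 lower, against 9.01% higher and 6.44% lower of all genes tested, 15.5% together. The groups did not overlap for 0 of the 7, against 3.41% of all genes tested (2.08% higher and 1.33% lower). Of the 7 fold changes 6 were positive, where 49.8% of all genes tested were, with a median log2 fold change of 0.17, against -0.00065 over all genes tested. The positive ones included Pxmp2, whose sign turned with scaling by total counts (-0.044).

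**Figure D1:**
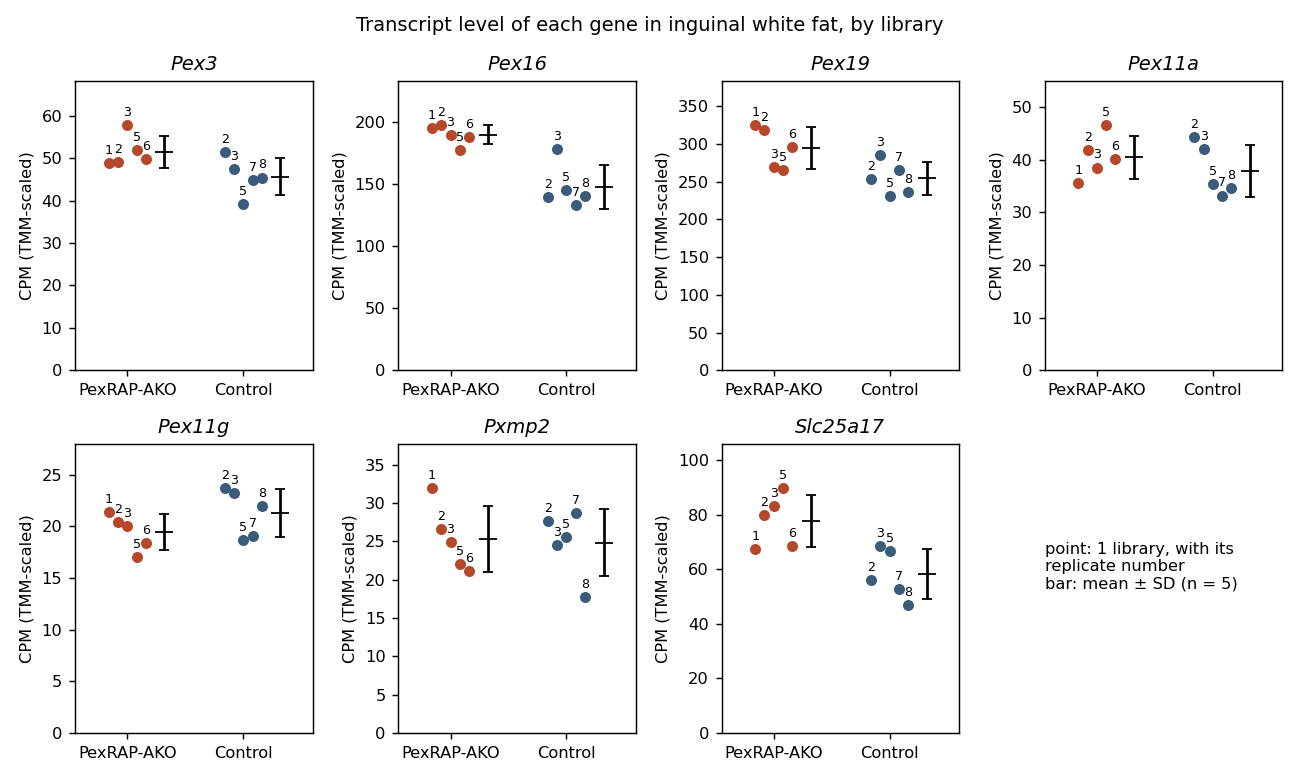
TMM-scaled CPM of each of the 7 genes (vertical axis, from 0) in the 5 PexRAP-AKO libraries (left, red) and the 5 Control libraries (right, blue), labelled by replicate number, with mean ± SD beside them. Pex16 parts the groups except for Control replicate 3 at 178.4 CPM, which lies just above PexRAP-AKO replicate 5 at 177.8 CPM.

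Levels between genes were compared per kilobase of annotated exon. On this scale Pex16 was the highest, at 106.8 ± 4.28 CPM per kb in PexRAP-AKO and 83.0 ± 10.04 CPM per kb in Control (SD, n = 5 each). Pex19 came next, at 77.3 ± 7.17 CPM per kb in PexRAP-AKO and 66.7 ± 5.89 CPM per kb in Control. The intervals of mean ± SD of these top genes did not overlap in either group, though narrowly in Control. The order of Pex16 over Pex19 rests on the annotated exon lengths, 1775 bases for Pex16 and 3815 for Pex19. In CPM, without division by length, Pex19 was the higher. It had 294.8 CPM in PexRAP-AKO and 254.3 in Control, against 189.7 and 147.4 for Pex16. Slc25a17 had 27.3 ± 3.39 CPM per kb in PexRAP-AKO and 20.5 ± 3.25 in Control, and Pxmp2 had 21.1 ± 3.60 in PexRAP-AKO and 20.7 ± 3.61 in Control. These overlapped in both groups and cannot be ordered. Pex11a had 12.7 ± 1.29 CPM per kb in PexRAP-AKO and 11.9 ± 1.54 in Control, and Pex3 had 10.9 ± 0.79 in PexRAP-AKO and 9.64 ± 0.93 in Control. This pair also overlapped in both groups. Pex11g was the lowest, at 5.72 ± 0.51 CPM per kb in PexRAP-AKO and 6.27 ± 0.69 in Control. The transcripts for the membrane receptor PEX3 and for its partners PEX19 and PEX16 thus stood far apart in level, with Pex3 the least of the trio.

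**Figure D2:**
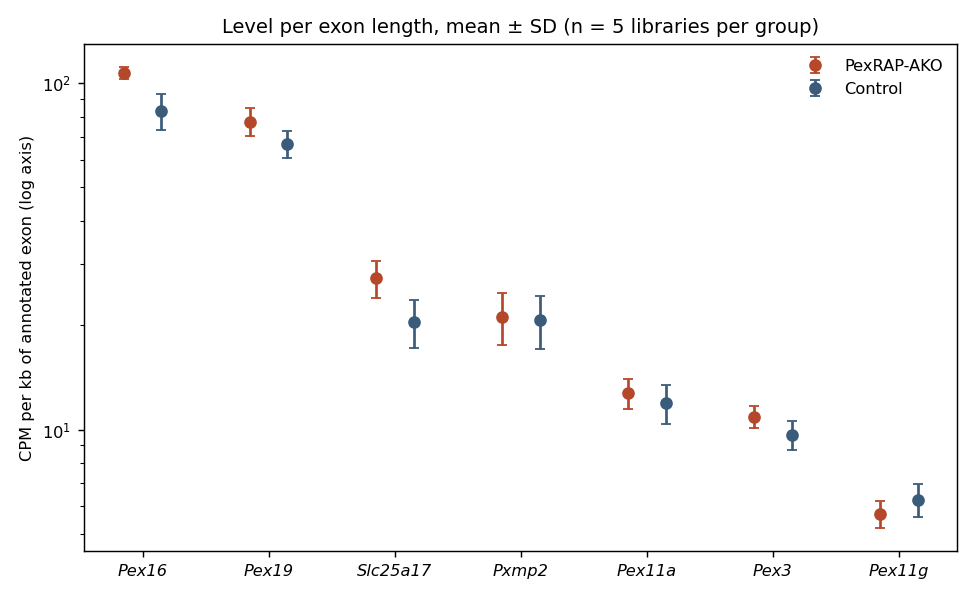
Level of each gene in CPM per kilobase of annotated exon (log axis), mean ± SD over 5 PexRAP-AKO libraries (red, left) and 5 Control libraries (blue, right). Pex16 and Pex19 lie above the other 5 genes in both groups, and Pex11g is lowest at 5.72 CPM per kb in PexRAP-AKO and 6.27 in Control.

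Pex16 (ENSMUSG00000027222, chromosome 2, 92374676 to 92381217, plus strand, GRCm38) encodes the membrane protein that recruits PEX3. It stood at 194.9, 197.5, 189.9, 177.8 and 188.1 CPM in PexRAP-AKO replicates 1, 2, 3, 5 and 6, and at 139.8, 178.4, 145.002, 133.3 and 140.4 CPM in Control replicates 2, 3, 5, 7 and 8. Control replicate 3 was the one library that made the groups overlap, since the other 4 Control libraries were all at or below 145.002 CPM. The mean was 189.7 ± 7.60 CPM in PexRAP-AKO and 147.4 ± 17.8 CPM in Control (SD, n = 5 each). The log2 fold change was 0.36 (SE 0.08, 95% interval 0.19 to 0.54, edgeR adjusted p = 0.0996), the nearest to the threshold of the 7 genes. The exact two-sided permutation p on log2 CPM was 0.0159, where the smallest possible with 5 against 5 is 0.00794. Without Control replicate 3 the log2 fold change was 0.44 and the gene was called by edgeR (adjusted p = 0.0153), and DESeq2 called it with all 10 libraries (adjusted p = 0.00237). Over all alternatives its adjusted p ran from 0.00237 to 0.409.

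Pex19 (ENSMUSG00000003464, chromosome 1, 172126755 to 172136493, plus strand, GRCm38) encodes the chaperone and import receptor of peroxisomal membrane proteins. It stood at 325.02, 318.3, 269.5, 265.02 and 295.9 CPM in PexRAP-AKO replicates 1, 2, 3, 5 and 6, and at 253.9, 285.9, 230.4, 265.2 and 236 CPM in Control replicates 2, 3, 5, 7 and 8. The groups overlapped through Control replicates 3 and 7, which lay within the PexRAP-AKO range. The mean was 294.8 ± 27.4 CPM in PexRAP-AKO and 254.3 ± 22.5 CPM in Control (SD, n = 5 each), with a log2 fold change of 0.21 (SE 0.08, 95% interval 0.03 to 0.40, edgeR adjusted p = 0.258). The exact permutation p was 0.0476, and it was 0.0556 to 0.103 once PexRAP-AKO replicate 1, 2 or 6 or Control replicate 2, 5, 7 or 8 was left out.

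Pex3 (ENSMUSG00000019809, chromosome 10, 13523842 to 13553142, minus strand, GRCm38) encodes the membrane anchor to which PEX19 brings its cargo. It stood at 48.9, 49.02, 57.8, 52.03 and 49.7 CPM in PexRAP-AKO replicates 1, 2, 3, 5 and 6, and at 51.5, 47.4, 39.3, 44.8 and 45.5 CPM in Control replicates 2, 3, 5, 7 and 8. Control replicate 2 exceeded 3 of the 5 PexRAP-AKO libraries, and the others of its group were below all of them. The log2 fold change was 0.17 (SE 0.08, 95% interval 0.0076 to 0.34, edgeR adjusted p = 0.304), with an exact permutation p of 0.0476, which was 0.0556 to 0.119 on removal of any 1 library except Control replicate 2. The mean was 51.5 ± 3.76 CPM in PexRAP-AKO and 45.7 ± 4.42 CPM in Control (SD, n = 5 each).

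Slc25a17 (ENSMUSG00000022404, chromosome 15, 81318911 to 81360812, minus strand, GRCm38) encodes PMP34, a peroxisomal member of the mitochondrial carrier family that moves coenzyme A and related nucleotides across the membrane. It stood at 67.7, 79.8, 83.3, 89.96 and 68.5 CPM in PexRAP-AKO replicates 1, 2, 3, 5 and 6, and at 55.96, 68.8, 66.6, 52.7 and 47.1 CPM in Control replicates 2, 3, 5, 7 and 8. PexRAP-AKO replicates 1 and 6 lay between Control replicates 5 and 3, and the other 3 PexRAP-AKO libraries were above every Control library. The mean was 77.9 ± 9.65 CPM in PexRAP-AKO and 58.2 ± 9.25 CPM in Control (SD, n = 5 each), with a log2 fold change of 0.42 (SE 0.12, 95% interval 0.16 to 0.67, edgeR adjusted p = 0.159). The exact permutation p was 0.0238, or 0.0556 once PexRAP-AKO replicate 2, 3 or 5 or Control replicate 8 was left out, and DESeq2 called the gene (adjusted p = 0.0326). Over all alternatives its adjusted p ran from 0.0326 to 0.513.

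Slc25a17 moved with markers of brown adipocytes across the libraries. A brown adipocyte score, the mean log2 CPM of 10 marker genes, ran from 4.80 to 6.93 in PexRAP-AKO and from 3.61 to 6.50 in Control. A further listed marker, Zic1, had 0 to 3 counts per library, did not pass the filter and is not in the score. Whether brown or beige adipocytes carried these transcripts was not tested. All 10 tested markers had a positive log2 fold change, with a median of 0.88 and 0 called. Their summed level was 611 to 2935 CPM in PexRAP-AKO and 282 to 2269 CPM in Control, and Ucp1, the uncoupling protein of brown fat, was detected in every library, at 94.1 to 1603 CPM in PexRAP-AKO and 28.6 to 1159 CPM in Control. Slc25a17 correlated with the score over the 10 libraries at Pearson r = 0.90 (permutation p = 0.00046, adjusted p = 0.00966 over 21 relations) and Spearman rho = 0.84 (permutation p = 0.00368, adjusted p = 0.0773). Without the 2 libraries farthest from the median score r was 0.75, and after subtracting group means it was 0.89 (permutation p = 0.00195, adjusted p = 0.0409). With the score as a covariate the log2 fold change of Slc25a17 was 0.21 (edgeR adjusted p = 0.513), against 0.42 without it.

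The other 6 genes were not shown to follow that score. Pex16 had r = 0.57 with it (permutation p = 0.0927, adjusted p = 0.266; Spearman rho = 0.41, permutation p = 0.25), 0.09 without the 2 farthest libraries, and its log2 fold change with the score as covariate was 0.33. Pex19 had r = 0.12 (permutation p = 0.732, adjusted p = 0.809; Spearman rho = -0.0061, permutation p = 1), and -0.42 without the 2 farthest libraries, with a log2 fold change of 0.27 under the covariate. Pex11a had r = 0.60 (permutation p = 0.0701, adjusted p = 0.266; Spearman rho = 0.53, permutation p = 0.123), 0.19 without the 2 farthest libraries and 0.54 after subtracting group means, and the covariate turned the sign of its fold change (-0.0058). Pex11g had r = -0.46 (permutation p = 0.179, adjusted p = 0.417; Spearman rho = -0.58, permutation p = 0.0888), and -0.74 without the 2 farthest libraries. For Pex3 r was 0.34 (permutation p = 0.347, adjusted p = 0.609) and Spearman rho 0.53 (permutation p = 0.124), with r = 0.10 without the 2 farthest libraries. For Pxmp2 r was 0.02 (permutation p = 0.962, adjusted p = 0.962) and Spearman rho -0.21 (permutation p = 0.561), with r = -0.69 without the 2 farthest libraries. Skeletal muscle markers (12 tested, all 12 with a negative log2 fold change, median -2.49, 0 called), which summed to 23.7 to 306 CPM in PexRAP-AKO and 34.4 to 2274 CPM in Control, had their strongest relation with Pex19, at r = -0.70 (permutation p = 0.0249, adjusted p = 0.261; Spearman rho = -0.62, permutation p = 0.0605), and r was -0.46 without the 2 farthest libraries. With the muscle score as covariate the log2 fold change was 0.16 for Pex19, 0.32 for Pex16 and 0.36 for Slc25a17. A white adipocyte score, the mean log2 CPM of 8 markers, was also tested. With it Pex19 had r = 0.31 (permutation p = 0.385, adjusted p = 0.609). After subtracting group means that r was 0.85 (permutation p = 0.00599, adjusted p = 0.0629). Slc25a17 had r = -0.63 with it (permutation p = 0.0534, adjusted p = 0.266). Of the 21 relations, 1 passed an adjusted p of 0.05 by Pearson r, that of Slc25a17 with the brown adipocyte score.

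**Figure D3:**
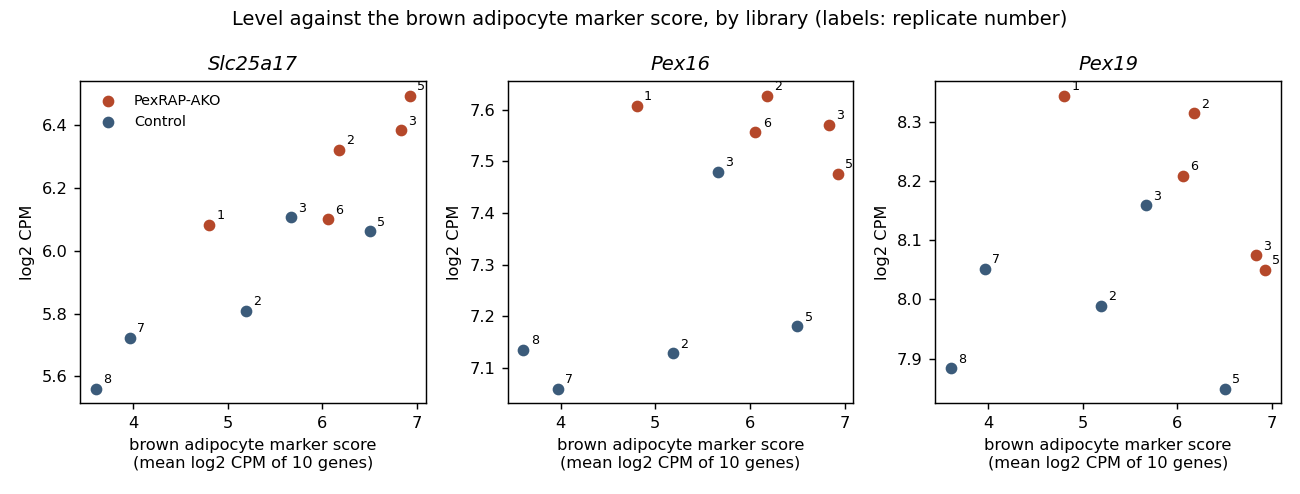
Log2 CPM of Slc25a17, Pex16 and Pex19 (vertical axes) against the brown adipocyte marker score (horizontal axes, mean log2 CPM of 10 genes), 1 point per library with its replicate number, PexRAP-AKO red and Control blue. Slc25a17 increases along the score in both groups (r = 0.90 over 10 libraries), while Pex16 has a gap between the groups at similar scores, bridged by Control replicate 3.

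Pxmp2 (ENSMUSG00000029499, chromosome 5, 110274282 to 110286186, minus strand, GRCm38) encodes a channel-forming protein of the peroxisomal membrane that lets small solutes through. It stood at 32, 26.7, 24.9, 22.02 and 21.1 CPM in PexRAP-AKO replicates 1, 2, 3, 5 and 6, and at 27.6, 24.5, 25.6, 28.7 and 17.7 CPM in Control replicates 2, 3, 5, 7 and 8. The groups overlapped over most of their ranges, with PexRAP-AKO replicate 1 the highest and Control replicate 8 the lowest library. The log2 fold change was 0.03 (SE 0.14, 95% interval -0.28 to 0.34, edgeR adjusted p = 0.944), and its sign turned without PexRAP-AKO replicate 1 (-0.069) or Control replicate 8 (-0.072) and with scaling by total counts (-0.044). By exact permutation p was 0.865.

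Pex11a (ENSMUSG00000030545, chromosome 7, 79735957 to 79743131, minus strand, GRCm38) is the PEX11 paralogue known in rodents to be induced by activators of PPAR alpha. It stood at 35.5, 41.7, 38.5, 46.6 and 40.1 CPM in PexRAP-AKO replicates 1, 2, 3, 5 and 6, and at 44.2, 41.9, 35.4, 33.2 and 34.6 CPM in Control replicates 2, 3, 5, 7 and 8. The groups overlapped widely. The log2 fold change was 0.10 (SE 0.10, 95% interval -0.11 to 0.30, edgeR adjusted p = 0.677). Leaving out 1 library moved it between 0.038 (without PexRAP-AKO replicate 5) and 0.15 (without Control replicate 2). An exact permutation of log2 CPM gave p = 0.349.

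Pex11g (ENSMUSG00000069633, chromosome 8, 3457105 to 3467680, minus strand, GRCm38) encodes the gamma paralogue. It stood at 21.4, 20.4, 20.01, 17 and 18.4 CPM in PexRAP-AKO replicates 1, 2, 3, 5 and 6, and at 23.7, 23.2, 18.6, 19.03 and 21.9 CPM in Control replicates 2, 3, 5, 7 and 8. It was the only one of the 7 genes with a lower mean in PexRAP-AKO, at 19.4 ± 1.75 CPM, against 21.3 ± 2.36 CPM in Control (SD, n = 5 each). The log2 fold change was -0.13 (SE 0.09, 95% interval -0.33 to 0.07, edgeR adjusted p = 0.532), and it stayed negative in all 22 alternatives run, from -0.20 to -0.08. Neither Pex11a nor Pex11g was called, and the upper ends of the 95% intervals of Pex11a and Pex11g were 0.30 and 0.07.

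**Figure D4:**
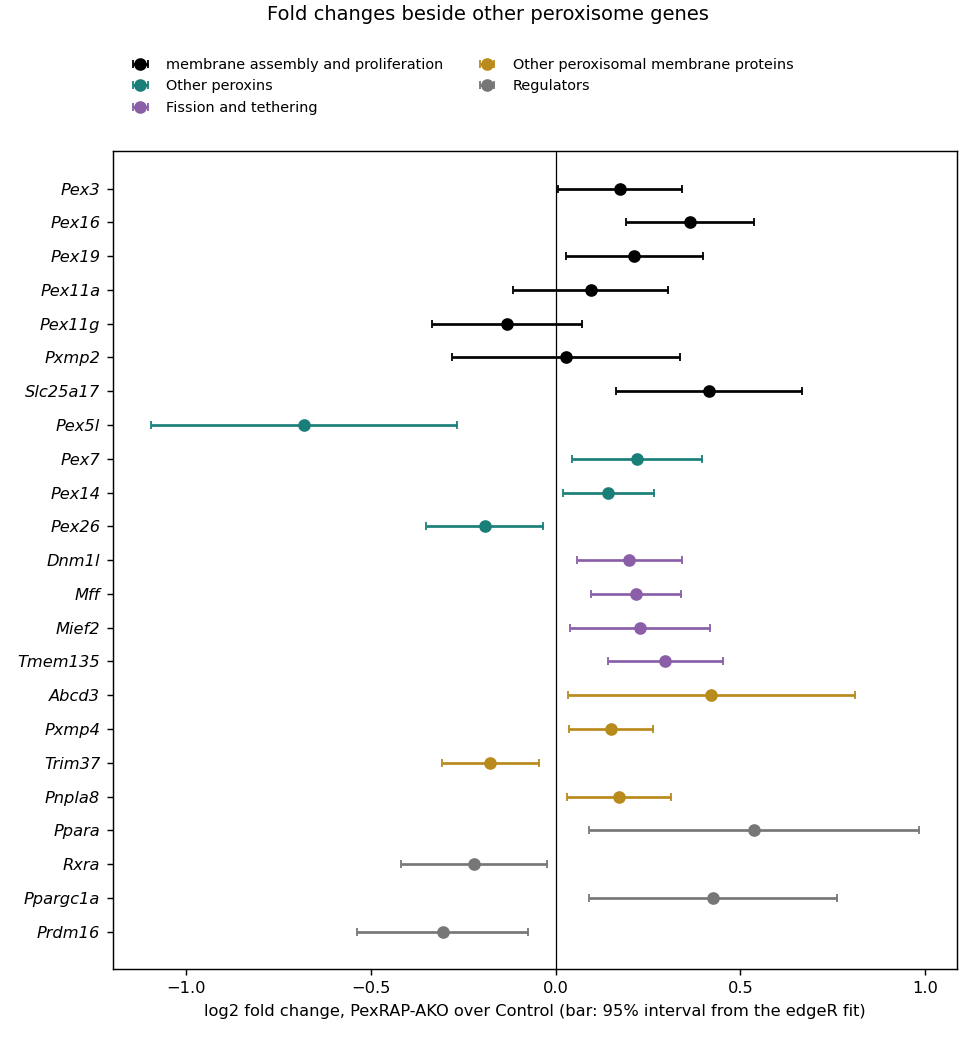
Log2 fold change, PexRAP-AKO over Control, with its 95% interval from the edgeR fit, for the 7 genes (black) and for the 4 genes of smallest p in each of 4 other lists (colours). Slc25a17 (0.42) and Pex16 (0.36) lie highest among the 7, and no gene drawn passed the threshold over all genes.

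Promoter sequences are shown for the highest log2 fold changes (Slc25a17 and Pex16) and for the one negative one (Pex11g), since these differ most among genes of one organelle. RefSeq promoter entries (GRCm38.p6) matched 5 of the 7 genes. For Pex16 there was a further entry, which is not printed. Positions are counted back from the start of the RefSeq entry, which for Slc25a17 and Pex11g lies inside the gene as GENCODE annotates it. Each stretch is the part of the 250 bases before that start that lies outside the gene's annotated exons: bases 250 to 1 for Pex16, 250 to 48 for Slc25a17 and 250 to 33 for Pex11g. Each runs 5′ to 3′ on the gene's strand. Capitals mark matches, on either strand, to the motifs named after the sequences. The Pex16 stretch (chr2:92374426-92374675, plus strand) lies inside Large2, which runs the other way. The Slc25a17 stretch is at chr15:81360813-81361015 and the Pex11g stretch at chr8:3467681-3467898, both on the minus strand.
Pex16: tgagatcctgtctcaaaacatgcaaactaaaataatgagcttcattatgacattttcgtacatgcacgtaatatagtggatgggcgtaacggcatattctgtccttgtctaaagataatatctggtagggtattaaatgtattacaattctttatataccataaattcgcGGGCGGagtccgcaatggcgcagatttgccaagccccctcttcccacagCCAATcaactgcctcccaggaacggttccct
Slc25a17: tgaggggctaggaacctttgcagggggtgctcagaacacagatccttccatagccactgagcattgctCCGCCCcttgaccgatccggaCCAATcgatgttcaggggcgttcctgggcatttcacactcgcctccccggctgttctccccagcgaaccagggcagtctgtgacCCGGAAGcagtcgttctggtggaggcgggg
Pex11g: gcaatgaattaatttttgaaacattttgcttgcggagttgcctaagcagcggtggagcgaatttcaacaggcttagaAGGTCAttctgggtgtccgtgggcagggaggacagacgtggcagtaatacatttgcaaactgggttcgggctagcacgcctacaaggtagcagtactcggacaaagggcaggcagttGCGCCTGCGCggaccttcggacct

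The printed Pex16 stretch held a GC box (GGGCGG) 80 to 75 bases before the start and a CCAAT box (CCAAT) 31 to 27 bases before it. The window of the further Pex16 entry, at chr2:92374989-92375238 inside the gene, held none of the motifs searched. The Slc25a17 stretch held a GC box on the other strand 182 to 177 bases before the start, a CCAAT box 161 to 157 bases before the start and an ETS site (CCGGAAG) 77 to 71 bases before it. The Pex11g stretch held the nuclear receptor half-site AGGTCA 173 to 168 bases before the start and an NRF1 site 56 to 47 bases before it, and a GC box on the other strand 14 to 9 bases before that start lay past the end of the printed stretch, inside the gene as GENCODE annotates it. The letters of the E-box (CACGTG), the cAMP response element (TGACGTCA) and the ERR extended half-site (TCAAGGTCA, which contains AGGTCA) were in none of the windows of the 5 genes. Pex11a had an ETS site and no AGGTCA in its window. Of 32851 promoter windows of the same length, 32.7% held the GC box, 33.8% the CCAAT box, 14% AGGTCA, 6.91% the ETS site, 3.74% the NRF1 site, 6.02% the E-box, 1.55% the cAMP response element and 0.387% the ERR extended half-site. The boxes in Pex16 and Slc25a17 are therefore of kinds found in many promoters.

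Several of the genes start beside another gene that runs the other way, and without stated strand reads from shared bases cannot be told apart. Pex3 shares 249 exon bases with Adat2, which had 4.64 ± 0.31 CPM in PexRAP-AKO and 4.10 ± 0.64 CPM in Control (SD, n = 5 each), far below Pex3. Pex16 shares 127 exon bases with Large2, which had 2 to 12 counts per library and was not tested. Pxmp2 and Pole start 120 bases apart on opposite strands, and Pole had a log2 fold change of -0.07 (SE 0.11, edgeR adjusted p = 0.807). Pxmp2 also shares 129 exon bases with Gm15788, which had 7 to 18 counts per library. The longest overlap was that of Pex11g, which shares 1396 of its 3397 exon bases with Gm44775 on the opposite strand, a locus not analysed here. Pex11a starts 32 bases from Wdr93 (log2 fold change 0.04, SE 0.12, edgeR adjusted p = 0.904, turned to -0.028 with scaling by total counts). On its other side, 3054 bases away, lies Plin1, the perilipin that coats lipid droplets of adipocytes, with 1876 ± 323 CPM in PexRAP-AKO and 2030 ± 201 CPM in Control (SD, n = 5 each) and a log2 fold change of -0.11 (SE 0.13, edgeR adjusted p = 0.718). No tested neighbour of the 7 genes was called by edgeR.

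The other peroxins, which import matrix proteins, had 0 of 12 called and a median log2 fold change of 0.10. The 4 of smallest p were Pex5l, a relative of the import receptor PEX5 (-0.68, SE 0.19), Pex7, the receptor for the second import signal (0.22, SE 0.08), Pex26, the membrane anchor of the export ATPases (-0.19, SE 0.07), and Pex14, a docking protein (0.14, SE 0.06), with edgeR adjusted p from 0.159 to 0.257. Pex5l was low, with 16 to 53 counts per library. It averaged 1.54 ± 0.10 CPM in PexRAP-AKO and 2.47 ± 0.58 CPM in Control (SD, n = 5 each). Pex14 did not overlap between groups, at 60.6 ± 1.36 CPM in PexRAP-AKO and 54.8 ± 3.91 CPM in Control (SD, n = 5 each). That was 1 of the 12, against 3.41% of all genes tested.

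Genes of fission and of tethering to other organelles had 0 of 12 tested called, with all 12 fold changes positive and a median of 0.11. Over all genes tested 49.8% were positive. The groups did not overlap for 2 of the 12, against 3.41% of all genes tested. Tmem135, a peroxisomal and mitochondrial membrane protein linked to mitochondrial fission, had 214.9 ± 13.4 CPM in PexRAP-AKO and 174.9 ± 14.4 CPM in Control (SD, n = 5 each). Its log2 fold change was 0.30 (SE 0.07, edgeR adjusted p = 0.123), and the groups did not overlap. Mff, the tail-anchored receptor of the fission dynamin, had 82.6 ± 3.47 CPM in PexRAP-AKO and 71.05 ± 4.42 CPM in Control (SD, n = 5 each), with a log2 fold change of 0.22 (SE 0.06, edgeR adjusted p = 0.142) and no overlap. Dnm1l, the dynamin itself, was at 0.20 (SE 0.07, edgeR adjusted p = 0.2) and Mief2, a mitochondrial receptor for it, at 0.23 (SE 0.09, edgeR adjusted p = 0.242). DESeq2 called Tmem135 (adjusted p = 0.00444) and Mff (adjusted p = 0.0236).

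Genes listed as other peroxisomal membrane proteins had 0 of 19 tested called, 16 with a positive fold change (49.8% over all genes tested), and a median of 0.09. The list included Mpv17l2, Fkbp8, Gnpat and Agps, and where its proteins lie in the cell was not tested. The groups did not overlap for 2 of the 19, against 3.41% of all genes tested. Trim37, a ubiquitin ligase with 25.4 ± 1.29 CPM in PexRAP-AKO and 28.8 ± 1.27 CPM in Control (-0.18, SE 0.06), and Pxmp4, a membrane protein of the organelle (0.15, SE 0.05), did not overlap between groups and had edgeR adjusted p of 0.21 and 0.214. Pnpla8, a phospholipase, was at 0.17 (SE 0.06, edgeR adjusted p = 0.237) and Abcd3, the fatty acyl-CoA transporter PMP70, at 0.42 (SE 0.18, edgeR adjusted p = 0.291), or 0.18 with the brown adipocyte score as covariate and 0.21 with the replicate block.

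Regulators of peroxisome number had 0 of 12 called, 6 positive and 6 negative. Ppara, the receptor that induces peroxisome genes, was at 0.54 (SE 0.20, edgeR adjusted p = 0.244) and its coactivator gene Ppargc1a at 0.43 (SE 0.15, edgeR adjusted p = 0.225). With the brown adipocyte score as covariate both were at 0.18. Ppargc1a is itself among the 10 genes of that score, so its value there is partly adjusted for itself, while Ppara is not in the score. Prdm16, a regulator of brown and beige adipocytes, was at -0.31 (SE 0.11, edgeR adjusted p = 0.214), and Rxra, the partner receptor of PPARs, at -0.22 (SE 0.09, edgeR adjusted p = 0.271).

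Known targets of PPARs had 0 of 36 called and 25 positive (49.8% over all genes tested), with a median of 0.17. The 4 of smallest p were Acaa1b, a peroxisomal thiolase (0.69, SE 0.15), Plin2, a lipid droplet protein (0.62, SE 0.16), Cpt2, a carnitine palmitoyltransferase (0.33, SE 0.09), and Slc25a20, the carnitine carrier (0.51, SE 0.15), with edgeR adjusted p from 0.112 to 0.175. DESeq2 called all 4 (adjusted p 0.00247 to 0.0305), and limma voom with sample weights called Acaa1b and Plin2. With the brown adipocyte score as covariate they were at 0.56 for Acaa1b, 0.38 for Plin2, 0.19 for Cpt2 and 0.24 for Slc25a20. These 4 are not in that score, but Ucp1, Cidea and Cpt1b of the same list are. Adipoq, Plin1 and Fabp4 of the list are also white adipocyte markers. The list of PPAR targets and the marker lists are thus not separate observations. Genes of peroxisome turnover by autophagy had 0 of 8 called and a median of -0.02. Their 4 of smallest p were Bnip3 (-0.26), Rnf5 (0.11), Usp30 (-0.09) and Stub1 (-0.05), with edgeR adjusted p from 0.608 to 0.808.

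Over the 10 libraries, 18 of the 21 pairs of the 7 genes had a positive Pearson r and 3 a negative one. Past an adjusted permutation p of 0.05 there were 0 pairs, and before adjustment 2 by Pearson and 5 by Spearman. Pex16 and Pex19 had Pearson r = 0.80 (permutation p = 0.00673, adjusted p = 0.091) and Spearman rho = 0.78 (permutation p = 0.0105, adjusted p = 0.203), with r = 0.91 without the 2 libraries farthest from the median and 0.58 after subtracting group means. Pex16 and Slc25a17 had r = 0.79 (permutation p = 0.00867, adjusted p = 0.091) and rho = 0.67 (permutation p = 0.0383, adjusted p = 0.203), with r = 0.69 without the 2 farthest libraries and 0.42 after subtracting group means. Pex11g and Slc25a17 had the most negative r, at -0.46 (permutation p = 0.179, adjusted p = 0.489; rho = -0.38, permutation p = 0.282), and -0.10 without the 2 farthest libraries. All values of a library share its scaling, so these relations are descriptions.

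Among 12985 genes, those whose log2 CPM over the 10 libraries was most like that of Slc25a17 were Tmem147 and Uqcrh, each with r = 0.99 and rho = 0.94. For Pex16 they were Saraf (r = 0.96, rho = 0.79) and Pex7 (r = 0.95, rho = 0.90), the one peroxin among the matches. For Pex19 they were Fnta (r = 0.97, rho = 0.94) and Mfsd8 (r = 0.96, rho = 0.95), and for Pex3 they were Zfp3 (r = 0.94, rho = 0.98) and Hgf (r = 0.92, rho = 0.82). For Pex11a they were Fchsd1 (r = 0.96, rho = 0.96) and Cdc26 (r = 0.93, rho = 0.93), for Pex11g they were Ccdc69 (r = 0.94, rho = 0.93) and Cxcl11 (r = 0.92, rho = 0.90), and for Pxmp2 Rtl6 was among them (r = 0.90, rho = 0.84). These were picked as the highest of all genes and carry no test.

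**Figure D5:**
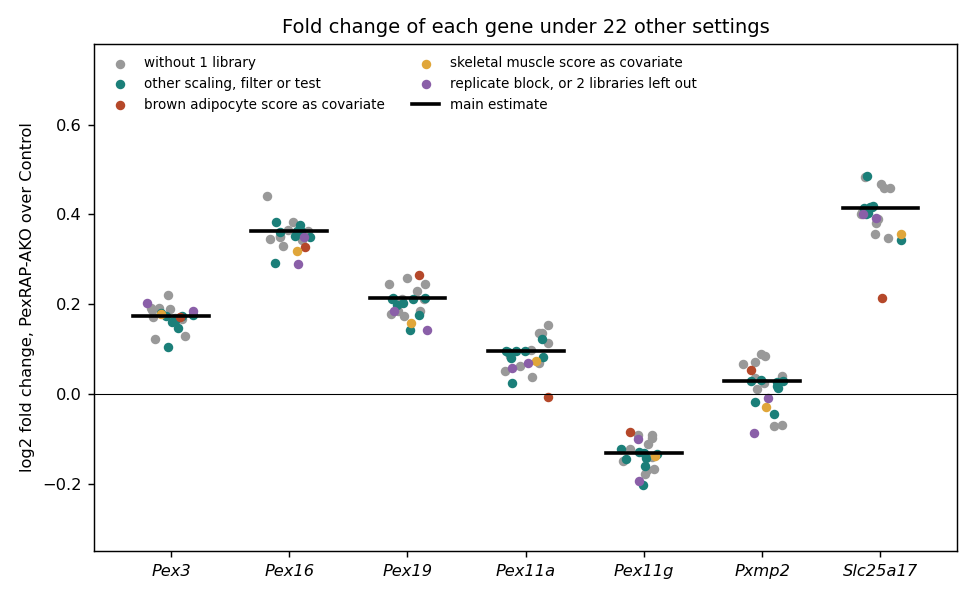
Log2 fold change, PexRAP-AKO over Control, of each of the 7 genes under 22 other settings (points, by kind of setting) beside the main estimate (black line). Slc25a17 is lowest with the brown adipocyte score as covariate (0.21), Pex16 is highest without Control replicate 3 (0.44), and Pxmp2 and Pex11a have points on both sides of 0.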

How the data were processed

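RNA was taken from inguinal white fat with a lipid tissue column kit and made into libraries by the Illumina manufacturer's method, per the labels' protocols. The authors deposited raw read counts per gene. The submitters' processing notes name the aligner STAR 2.0.4b, the Subread package, featureCounts and edgeR. Build, annotation and strand setting of the counting were not given in the sources used here. There were 40724 rows for 40501 identifiers. Repeated rows (117 identifiers) did not differ and were reduced to 1. GENCODE M21 (GRCm38) held 99.4% of them and supplied coordinates and exon lengths (union of exons).

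TMM scaling used edgeR 4.0.16 under R 4.3.3, and filterByExpr (minimum count 10, minimum total 15) left 14913 genes. PexRAP-AKO was compared with Control by the quasi-likelihood F test with robust dispersion, no covariate and Benjamini-Hochberg adjustment over all genes tested. SE is the fold change over the square root of F. Log2 CPM used a prior count of 2. Single genes were also compared by exact two-sided permutation, and correlations by 100000 permutations. The lowest chi-square per degree of freedom between replicates was 5.30, so no library was taken as a repeat. The p-values measure the spread between these libraries.

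The genes and lists were chosen with earlier results of these data known. Named were all 7 genes, Dhrs7b, the 4 genes of smallest p per list, Plin1, annotated neighbours and the 2 most alike genes of each. Some items under this rule are not reported here. Alternatives were other scalings and filters, DESeq2 1.42.0, limma 3.58.1 voom, a marker score in the model, a block for the replicate number, and libraries left out.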

Additional observations from a re-analysis of the deposited data

Results flagged for a closer look

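Among 68 groups of 5 log2 CPM values, those of the 7 genes, Dhrs7b and the named list genes, 3 held 1 library that stood well apart, where about 3.4 would be so by chance. Pex16 was high in Control replicate 3 (7.48), the library whose removal brought the Pex16 call in edgeR. Ppargc1a was low in Control replicate 8 (4.17), which also had the lowest brown adipocyte score (3.61). Ppargc1a is among the genes of that score, so these are not separate observations. Bnip3 was low in Control replicate 5 (6.45).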

How the results depend on the processing

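Of the 23 alternatives, 20 left the count of called genes among the 7 at 0. DESeq2 gave 2, a threshold of 0.1 gave 1, and leaving out 1 library gave 0 to 1 (Pex16 without Control replicate 3). DESeq2 called Pex16 (0.36) and Slc25a17 (0.42), and Pex16 ran from 0.33 to 0.44 over libraries left out. The sign of Pex11a turned with the brown score (-0.0058). That of Pxmp2 turned with total counts (-0.044), sample quality weights in voom (-0.019), the muscle score (-0.030), the replicate block (-0.087), and without PexRAP-AKO replicate 6 and Control replicate 8 (-0.010), and it ran from -0.072 to 0.088 over libraries left out.

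In exact permutation, Pex3 passed 0.05 no longer with DESeq2 size factors (log2 CPM difference 0.18), upper-quartile scaling (0.16) or total counts (0.10), nor without any 1 library other than Control replicate 2 (all 10 removals gave 0.12 to 0.22, the highest being that of Control replicate 2). Pex19 missed 0.05 with upper-quartile scaling (0.20), total counts (0.14) and on removal of PexRAP-AKO replicate 1, 2 or 6 or of Control replicate 2, 5, 7 or 8. Over all 10 removals the Pex19 difference was 0.17 to 0.26, highest without Control replicate 3, where it passed. Slc25a17 missed it on removal of PexRAP-AKO replicate 2, 3 or 5 or of Control replicate 8. Over all 10 removals the Slc25a17 difference was 0.35 to 0.49, highest without Control replicate 3, where it passed. Pxmp2 was -0.038 with total counts and ran from -0.086 to 0.094 over libraries left out. Fewer libraries leave fewer possible splits. Pex16 had p under 0.05 in 14 of 14 alternatives. Of the pairs of genes, 1 passed without the 2 farthest libraries, against 0 with all 10.

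All genes called numbered 15 in the main test, 26 with no low-count filter, 439 with DESeq2, 107 with sample weights, 6 with the brown score, 6 with the muscle score, 5 without both named libraries, 98 at 0.1, and 3 (Control replicate 8) to 58 (PexRAP-AKO replicate 1) over libraries left out. In the block on replicate number, fitted for numbers 2, 3 and 5, 3 genes were called, and 0 of the 7. Deviations of same-numbered libraries correlated at -0.02, -0.08 and 0.36, and only number 5 had its best match at its own number, which gives no pairing. Of 98 tested genes on the other lists 0 were called, but 8 with DESeq2, which called 4.27% of all genes it adjusted, and 2 with sample weights. The cause of these shifts was not tested.

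Signs also turned with the brown score for Bnip3 (0.090), Rnf5 (-0.053), Usp30 (0.073), Plin1 (0.018), 1700029I15Rik (0.070), Dcaf8 (0.021), Arhgef18 (0.043), Pole (0.029) and St13 (0.16), with total counts for Copa (-0.034) and Wdr93 (-0.028), with the muscle score for St13 (0.00045), and without both named libraries for 1700029I15Rik (0.10) and St13 (0.040). Over libraries left out, Usp30 ran from -0.18 to 0.00029, 1700029I15Rik from -0.087 to 0.073, Wdr93 from -0.033 to 0.11, Arhgef18 from -0.14 to 0.037 and St13 from -0.12 to 0.023.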
